A study of Mus musculus with 12 samples.

Results

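The genes that gate the entry into S phase were followed in early lymphoid progenitors of the bone marrow (BM). They comprise 9 members out of 32285 genes in the count table: the D cyclins Ccnd1, Ccnd2 and Ccnd3, their kinases Cdk4 and Cdk6, and the CDK inhibitors Cdkn1a, Cdkn1b, Cdkn2c and Cdkn2d. Their rows were taken by gene name. Poly(A) RNA was sequenced from Ly6d- CLPs, the common lymphoid progenitors that lack the B-lineage surface protein Ly6d, and from Flk2+ MPPs, the multipotent progenitors that precede them. Both populations were sorted from WT mice of the strain labelled C57BL6/J at 1MO and 3MO of age (months of age), and the labels name no treatment or transgene. Each of the 4 groups, 1MO CLP, 3MO CLP, 1MO MPP and 3MO MPP, holds 3 libraries (#1 to #3), from independent experiments with cells sorted mouse by mouse. Whether libraries of equal number came from one mouse or one experiment is not given in the sources used here, and p-values measure the spread between these libraries.

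D cyclins are the labile regulatory subunits that growth factor and cytokine signals induce in G1, and each binds CDK4 or CDK6 to phosphorylate RB and release E2F. The INK4 proteins, p18 from Cdkn2c and p19 from Cdkn2d, bind the kinase and keep the cyclin off it, whereas p21 from Cdkn1a and p27 from Cdkn1b bind whole cyclin-CDK complexes, inhibit CDK2 and can also help CDK4/6 complexes assemble. Mice that lack all D cyclins, or both kinases, fail in fetal hematopoiesis, p18 and p21 are known for restraining hematopoietic stem and progenitor cells, and Ccnd3 is known for its need in the expansion of early B- and T-lineage cells.

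The totals of estimated counts ranged from 8889083 to 20677785 per library. The label of each cell type was checked against marker genes. The summed level of 8 CLP markers, among them Il7r, Dntt and Rag1, was 5117 to 6409 CPM (estimated counts scaled to a common library size) in Ly6d- CLPs and 2519 to 3151 CPM in Flk2+ MPPs, and Il7r alone was 299 to 402 CPM against 5.24 to 18.5 CPM. Kit and Ly6a of this list were lower in Ly6d- CLPs without overlap at each age. Kit was at 222 to 377 against 672 to 797 CPM, and Ly6a at 1MO at 4.41 to 12.3 against 24.0 to 43.4 CPM. The summed MPP markers, which share Flt3, Kit and Ly6a with the first list, ran the other way, from 2322 to 2507 CPM in Ly6d- CLPs and from 3024 to 3423 CPM in Flk2+ MPPs. Flt3, however, was higher in Ly6d- CLPs without overlap, at 1341 to 1524 against 1103 to 1223 CPM at 1MO and 1437 to 1484 against 1236 to 1363 CPM at 3MO. Cd48 was also higher at 3MO, at 44.2 to 75.7 against 30.2 to 40.5 CPM, and overlapped at 1MO. Some libraries stood apart in markers of other cells. Stroma and bone genes summed to 217 to 604 CPM in 1MO CLP against 4.74 to 10.2 CPM in 3MO CLP, and the 4 libraries numbered 3 held 88.1 to 140 CPM of erythroid genes against 17.1 to 33.8 CPM in the others. In bulk RNA of this kind, fewer cells that express a gene and less RNA per cell cannot be told apart.

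Cdkn1a, Cdk6 and Ccnd2 were higher in Ly6d- CLPs than in Flk2+ MPPs at both ages, whereas no member passed the test for age. The stretches of DNA before the starts of 3 members are shown first, because Cdkn1a and Cdk6 differed between the cell types and Cdk4, the partner kinase, did not pass the test. The windows are the 250 bases before a RefSeq transcription start on GRCm38.p6, all on the plus strand: chr17:29090729-29090978 for Cdkn1a, chr5:3343643-3343892 for Cdk6 and chr10:127063285-127063534 for Cdk4. The Cdk6 window lies inside the annotated span of the gene, chr5:3341485-3531008. Capitals mark letters that match a motif, either CATGNNNNNNCATG, the cores of a paired p53 half-site, or CACGTG, the E-box that MYC and MAX bind. Both motifs read the same on either strand, and they do not overlap one another here.
Cdkn1a: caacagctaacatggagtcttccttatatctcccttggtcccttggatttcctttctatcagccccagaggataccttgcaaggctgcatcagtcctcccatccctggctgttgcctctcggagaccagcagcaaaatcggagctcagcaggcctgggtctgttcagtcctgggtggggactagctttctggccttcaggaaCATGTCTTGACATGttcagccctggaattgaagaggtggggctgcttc
Cdk6: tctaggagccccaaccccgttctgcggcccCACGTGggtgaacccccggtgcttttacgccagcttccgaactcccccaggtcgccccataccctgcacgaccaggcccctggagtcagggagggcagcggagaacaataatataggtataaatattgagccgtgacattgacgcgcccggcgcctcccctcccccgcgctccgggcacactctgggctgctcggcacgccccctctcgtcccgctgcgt
Cdk4: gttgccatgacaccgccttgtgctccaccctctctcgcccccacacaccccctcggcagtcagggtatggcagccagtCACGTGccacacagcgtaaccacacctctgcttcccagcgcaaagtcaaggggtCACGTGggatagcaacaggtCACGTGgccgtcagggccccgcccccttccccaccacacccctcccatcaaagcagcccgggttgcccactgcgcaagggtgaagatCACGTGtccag
The p53-type pair stood once before the upstream start of Cdkn1a, and 0.49% of 32851 promoter windows of this length held it. The window before the other listed start of Cdkn1a, chr17:29093519-29093768, held 0 matches. The E-box stood 4 times before Cdk4, where 6.02% of all windows held at least 1 and 0.0213% at least 4, and once before Cdk6. The E2F-type motif TTTNGCGC, searched on both strands and present in 1.13% of all windows, stood in none of the 10 windows of the 7 members that the promoter table lists (Ccnd3, Cdk4, Cdk6, Cdkn1a, Cdkn1b, Cdkn2c and Cdkn2d). These matches are letters in a window and no measure of binding.

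To compare genes with each other, CPM was divided by the length of the longest annotated transcript in kb. On this scale of levels, Cdk6 stood first in 11 of 12 libraries, and Cdk4 led in 1MO MPP #3. In 1MO CLP the level of Cdk6 was 245 ± 16.9 CPM per kb (SD, n = 3), followed by Ccnd2 at 161 ± 19.1, Cdk4 at 123 ± 30.4 and Ccnd3 at 66.4 ± 3.18. The remaining members lay near or below 21.4 CPM per kb, with Ccnd1, Cdkn1b and Cdkn1a within their spread of each other at 21.4 ± 8.55, 19.6 ± 2.30 and 19.0 ± 2.89, and Cdkn2c and Cdkn2d likewise at 9.30 ± 3.11 and 8.01 ± 1.20. The order of the 4 most abundant members was the same in all 6 libraries of Ly6d- CLPs, although the means ± SD of Ccnd2 and Cdk4 overlapped in both CLP groups. In Flk2+ MPPs the upper members lay closer together. In 1MO MPP, Cdk6 was at 136 ± 32.3, Ccnd2 at 105 ± 4.28 and Cdk4 at 104 ± 11.8 CPM per kb, so that none of the 3 stood apart from its neighbour by more than the spread. In 3MO MPP Cdk6 was at 159 ± 33.8 and Cdk4 at 106 ± 23.8, and Ccnd2, at 81.1 ± 9.56, overlapped Cdk4. The lowest member also differed between the cell types. Cdkn1a was last in all 6 libraries of Flk2+ MPPs, at 3.78 ± 0.431 and 4.83 ± 1.66 CPM per kb at 1MO and 3MO, and was never last in Ly6d- CLPs. The order rests on the length used. Per kb of the median annotated transcript, Cdk6 was again first in 11 of 12 libraries, but Ccnd2 stood well above Cdk4 in each group, at 829 ± 33.6 against 230 ± 26.2 in 1MO MPP. On that scale Cdk4 exceeded Ccnd3 in 7 of 12 libraries, and Cdkn1a was last in 4 of the 6 libraries of Flk2+ MPPs.

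Summed over the 3 D cyclins, the level was 249 ± 20.3 CPM per kb in 1MO CLP, 227 ± 2.28 in 3MO CLP, 169 ± 9.64 in 1MO MPP and 145 ± 20.4 in 3MO MPP. The summed level of both kinases was 368 ± 22.5, 384 ± 16.1, 239 ± 21.4 and 265 ± 23.5 CPM per kb in the same order. In both sums every library of Ly6d- CLPs lay above every library of Flk2+ MPPs, also per kb of the median transcript. The 4 inhibitors together also lay without overlap but closer, at 56.0 ± 3.55, 55.4 ± 4.75, 45.0 ± 2.65 and 46.3 ± 3.25 CPM per kb.

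**Figure D1:**
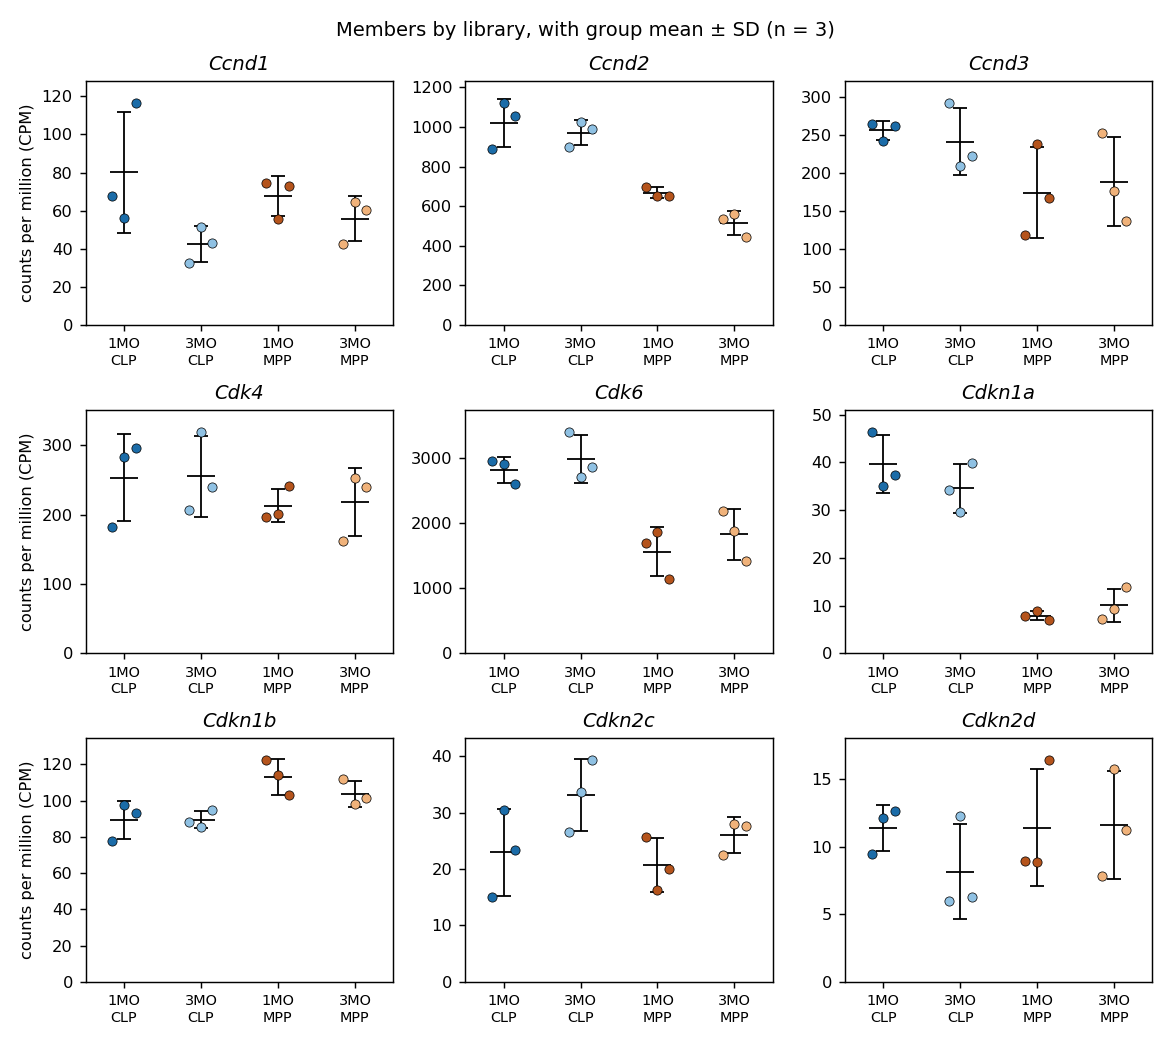
Levels of the 9 members in CPM (vertical axes, each from 0) in the 4 groups; points are libraries #1 to #3 from left to right, and bars are the mean ± SD of 3 libraries. Cdkn1a, Cdk6 and Ccnd2 show no overlap between Ly6d- CLPs (blue) and Flk2+ MPPs (orange) at either age.

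Cdkn1a encodes p21, the CIP/KIP inhibitor best known as a target of p53, and lies at chr17:29090976-29100727 on the plus strand (GRCm38, GENCODE M21). Its level was 46.4, 35.0 and 37.4 CPM in 1MO CLP #1 to #3 and 34.2, 29.6 and 39.8 CPM in 3MO CLP. It was 7.79, 8.78 and 6.99 CPM in 1MO MPP and 7.08, 9.21 and 13.8 CPM in 3MO MPP, from 67 to 195 estimated counts. The lowest library of Ly6d- CLPs was above the highest of Flk2+ MPPs. At 1MO, Cdkn1a was 5.05-fold higher in Ly6d- CLPs (log2 fold change 2.34, SE 0.29, adjusted p = 0.000142 by edgeR's quasi-likelihood test). At 3MO it was 3.42-fold higher (log2 fold change 1.78, SE 0.29, adjusted p = 0.00127). The difference between the ages in this fold did not pass the test, with an interaction of -0.56 on the log2 scale (SE 0.40, unadjusted p = 0.177, edgeR) and of -0.26 without 3MO MPP #3. Among the 4 inhibitors, Cdkn1a made up 34.3% ± 7.53 and 30.0% ± 3.68 of the summed CPM per kb in 1MO and 3MO CLP, against 8.44% ± 1.40 and 10.3% ± 3.10 in the MPP groups.

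Of the 9 members, 3 passed the test between Ly6d- CLPs and Flk2+ MPPs at 1MO, all higher in Ly6d- CLPs, and the same 3 passed at 3MO. The share of all 13367 tested genes that passed was 5.38% at 1MO, with 2.57% higher in Ly6d- CLPs, and 6.07% at 3MO, with 2.73% higher. Genes called in one direction at both ages made up 3.67% of those tested. Markers of other cells moved with the cell type as well. The 8 B-lineage markers summed to 90.3 to 124 CPM in 1MO CLP and 42.8 to 67.3 CPM in 3MO CLP, mostly Ebf1, against 8.99 to 21.2 CPM in Flk2+ MPPs, while Igll1 was at 0 in 11 of 12 libraries and Ly6d stayed at 1.03 to 7.26 CPM in Ly6d- CLPs. At 1MO the 10 stroma and bone markers summed to 217 to 604 CPM in Ly6d- CLPs and 13.4 to 81.1 CPM in Flk2+ MPPs, whereas at 3MO they were at or below 14.7 CPM in both. The 8 monocyte, macrophage and dendritic markers summed to 191 to 344 CPM in Ly6d- CLPs and 130 to 211 CPM in Flk2+ MPPs, with Siglech of plasmacytoid dendritic cells at 51.7 to 76.5 CPM against 0 to 5.04 CPM. Itgam of the same list lay the other way without overlap, at 44.7 to 52.5 against 56.8 to 70.5 CPM at 1MO and 34.1 to 61.6 against 70.1 to 90.9 CPM at 3MO. The 9 neutrophil and granulocyte markers, mostly Mpo, summed to 943 to 1326 CPM against 674 to 820 CPM at 1MO and overlapped at 3MO, and the 6 endothelial markers to 351 to 401 against 304 to 330 CPM at 1MO and 340 to 382 against 276 to 329 CPM at 3MO. The endothelial sum was mostly Pecam1, at 263 to 299 CPM in Ly6d- CLPs and 121 to 172 CPM in Flk2+ MPPs, whereas Eng, Emcn and Tek were lower in Ly6d- CLPs without overlap at both ages, with Emcn at 3.60 to 9.96 against 20.8 to 25.4 CPM at 1MO. Prtn3 of the neutrophil list was lower in Ly6d- CLPs without overlap at 3MO, at 29.5 to 40.2 against 42.2 to 100.3 CPM. Their part in the differences of the members was not tested.

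Cdk6 encodes the D cyclin kinase known for a large part in hematopoietic progenitors, and lies at chr5:3341485-3531008 on the plus strand. It was the most abundant member in CPM, at 2957, 2904 and 2596 CPM in 1MO CLP and 3406, 2702 and 2865 CPM in 3MO CLP. In Flk2+ MPPs it was at 1690, 1857 and 1145 CPM at 1MO and 2187, 1881 and 1412 CPM at 3MO. The groups did not overlap at either age, and the libraries numbered 3 were the lowest of their group in 1MO CLP, 1MO MPP and 3MO MPP. Cdk6 was 1.80-fold higher in Ly6d- CLPs at 1MO (log2 fold change 0.85, SE 0.19, adjusted p = 0.0139, edgeR) and 1.64-fold higher at 3MO (0.71, SE 0.19, adjusted p = 0.0371). The 1MO call was lost without 1MO CLP #2 or 1MO MPP #3, with adjusted p = 0.057 and 0.056 by edgeR. The 3MO call was lost without any one of 5 of the 6 libraries, the exception being 3MO MPP #1, at log2 fold changes of 0.56 to 0.78 and adjusted p from 0.057 to 0.13.

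Cdk4, the other D cyclin kinase and a textbook MYC target, lies at chr10:127063534-127067920 on the plus strand, where Tspan31 overlaps it on the opposite strand with up to 971 counts in a library. The library kit is directional, but the strand setting of the authors' quantification is not given in the sources used here, so reads of overlapping genes may not be separated. The level of Cdk4 was 181, 283 and 295 CPM in 1MO CLP, 206, 320 and 240 CPM in 3MO CLP, 197, 201 and 241 CPM in 1MO MPP and 162, 253 and 240 CPM in 3MO MPP. All groups overlapped. Cdk4 did not pass the test between cell types at 1MO (log2 fold change 0.25, SE 0.22, adjusted p = 0.73) or at 3MO (0.22, SE 0.22, adjusted p = 0.67).

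The share of Cdk6 in the summed CPM per kb of both kinases was 66.7% ± 6.90 in 1MO CLP, 67.6% ± 7.28 in 3MO CLP, 56.2% ± 8.97 in 1MO MPP and 59.6% ± 9.97 in 3MO MPP. It was 9.26 percentage points higher in Ly6d- CLPs than in Flk2+ MPPs (two-sided exact permutation test within each age, p = 0.065, adjusted p = 0.26 over 12 share comparisons). Without division by length the difference was 3.66 points. The shares of the groups overlapped, with 60.1% to 74.6% over the 6 libraries of Ly6d- CLPs and 45.9% to 70.6% over those of Flk2+ MPPs.

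Within groups Cdk4 and Cdk6 lay on opposite sides of their group means in the libraries other than 1MO CLP #2, 3MO CLP #3 and 3MO MPP #2, and the levels of both were correlated with a length index of the library. This index is the slope of log2 CPM, centred per gene, on log2 transcript length over 13363 genes. For the correlations, CPM was centred within each group. Cdk6, with a longest transcript of 11525 bases, had a Pearson r of 0.88 with this index over 12 libraries, and Cdk4, with 2053 bases, an r of -0.76. Cdk4 and Cdk6 had an r of -0.63 with each other on the same centred values. The 12 points share library preparation and depth, and these values are descriptions. With the index, here centred over all 12 libraries so that it also differs between groups, as a term in the fit, the calls of Cdk6, Ccnd2 and Cdkn1a were kept at both ages. Over the other members the r with the index ran from -0.62 for Cdkn2d to 0.52 for Ccnd3, and 5.06% of all genes had a larger absolute value than Cdk6 and 15.2% a larger one than Cdk4.

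**Figure D2:**
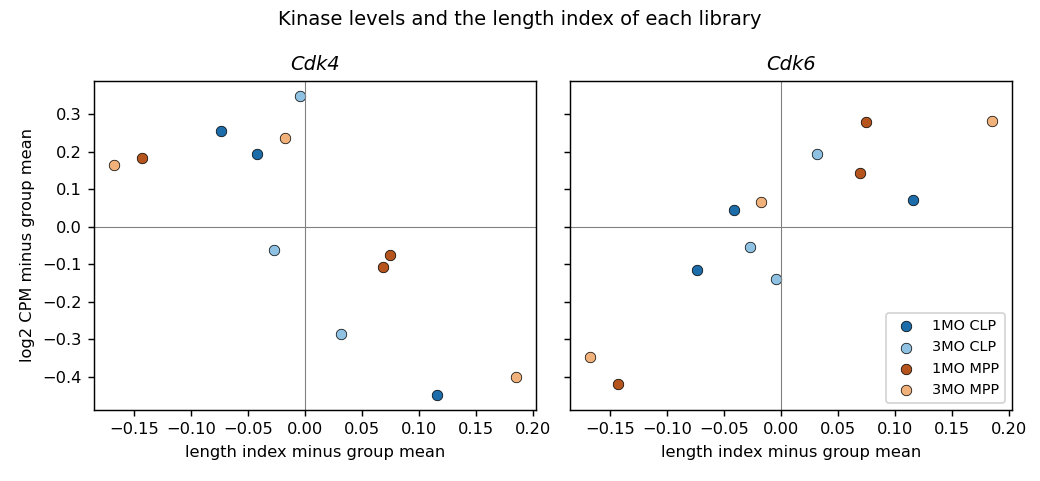
Deviation of log2 CPM from the group mean for Cdk4 (left) and Cdk6 (right) against the length index of the library minus its group mean, for 12 libraries coloured by group. Cdk4 falls and Cdk6 rises along the index, with r of -0.76 and 0.88.

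Ccnd2, the D cyclin that cytokine receptors and PI3K signals induce in lymphoid and stem cells, lies at chr6:127125162-127152193 on the minus strand. It was at 887, 1120 and 1057 CPM in 1MO CLP and at 899, 1025 and 991 CPM in 3MO CLP. In Flk2+ MPPs it was at 698, 651 and 652 CPM at 1MO and at 534, 561 and 446 CPM at 3MO. Each library of Ly6d- CLPs exceeded each library of Flk2+ MPPs. Ccnd2 was 1.53-fold higher in Ly6d- CLPs at 1MO (log2 fold change 0.61, SE 0.14, adjusted p = 0.0171, edgeR) and 1.89-fold higher at 3MO (0.92, SE 0.14, adjusted p = 0.00097). The 3MO call held without any one library. The 1MO call was lost without any one of 5 of the 6 libraries, the exception being 1MO CLP #1, with adjusted p from 0.054 to 0.10 and log2 fold changes of 0.54 to 0.65.

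Ccnd3, which pre-B and pre-T cells need when their receptor signals, lies at chr17:47505051-47599691 on the plus strand, overlapped on the opposite strand by Bysl with up to 539 counts in a library. It was at 264, 242 and 262 CPM in 1MO CLP and 292, 209 and 222 CPM in 3MO CLP, against 118, 238 and 166 CPM in 1MO MPP and 253, 176 and 137 CPM in 3MO MPP. The 1MO groups did not overlap, by a margin of a few CPM, and the 3MO groups did. The difference did not pass the test at 1MO (log2 fold change 0.56, SE 0.25, adjusted p = 0.28, edgeR) or at 3MO (0.36, SE 0.25, adjusted p = 0.50). Both values moved with single libraries of Flk2+ MPPs, at 1MO with 0.34 without 1MO MPP #1 and 0.85 without 1MO MPP #2 (adjusted p = 0.74 and 0.097, edgeR), and at 3MO with 0.17 without 3MO MPP #3 and 0.62 without 3MO MPP #1.

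Ccnd1, the D cyclin of mitogen and adhesion signals in many tissues, lies at chr7:144929931-144939925 on the minus strand, where LTO1 overlaps it on the opposite strand with up to 593 counts in a library. It was the least abundant D cyclin in each library, at 67.6, 56.3 and 116 CPM in 1MO CLP and 74.7, 55.8 and 72.9 CPM in 1MO MPP. At 3MO it was at 32.6, 51.4 and 42.9 CPM in Ly6d- CLPs and 42.5, 64.5 and 60.5 CPM in Flk2+ MPPs. The cell types overlapped at both ages and the difference at 3MO did not pass the test (log2 fold change -0.40, SE 0.27, adjusted p = 0.50, edgeR). It was -0.23 without 3MO CLP #1.

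Cdkn1b encodes p27, the CIP/KIP inhibitor of quiescent cells, and lies at chr6:134920401-134925513 on the plus strand. It was at 77.5, 97.4 and 93.1 CPM in 1MO CLP and 88.1, 85.7 and 94.7 CPM in 3MO CLP, and at 122, 114 and 103 CPM in 1MO MPP and 112, 98.1 and 101 CPM in 3MO MPP. Its libraries of Ly6d- CLPs lay below those of Flk2+ MPPs at both ages, the opposite side from Cdkn1a. The difference was small and did not pass the test, with a log2 fold change of -0.34 at 1MO (SE 0.16, adjusted p = 0.30, edgeR) and -0.21 at 3MO (SE 0.16, adjusted p = 0.54). In all, 5 members did not overlap between the cell types at 1MO and 4 at 3MO, where 24.9% and 21.8% of all tested genes did not, and 5.81% of tested genes lay lower in Ly6d- CLPs without overlap at both ages, as Cdkn1b did.

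The INK4 members were low and did not separate the cell types. Cdkn2c, at chr4:109660876-109667189 on the minus strand, was at 15.1, 30.5 and 23.4 CPM in 1MO CLP, 26.5, 33.7 and 39.3 in 3MO CLP, 25.7, 16.4 and 20.1 in 1MO MPP and 22.4, 28.0 and 27.6 in 3MO MPP. Cdkn2d, at chr9:21288410-21291407 on the minus strand, ranged from 5.95 to 12.6 CPM in Ly6d- CLPs and from 7.82 to 16.4 CPM in Flk2+ MPPs. The fitted differences between cell types at 3MO were 0.35 for Cdkn2c (SE 0.29, adjusted p = 0.59, edgeR) and -0.51 for Cdkn2d (SE 0.42, adjusted p = 0.59) on the log2 scale. The founding INK4 genes Cdkn2a and Cdkn2b had 0 counts in all 12 libraries.

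**Figure D3:**
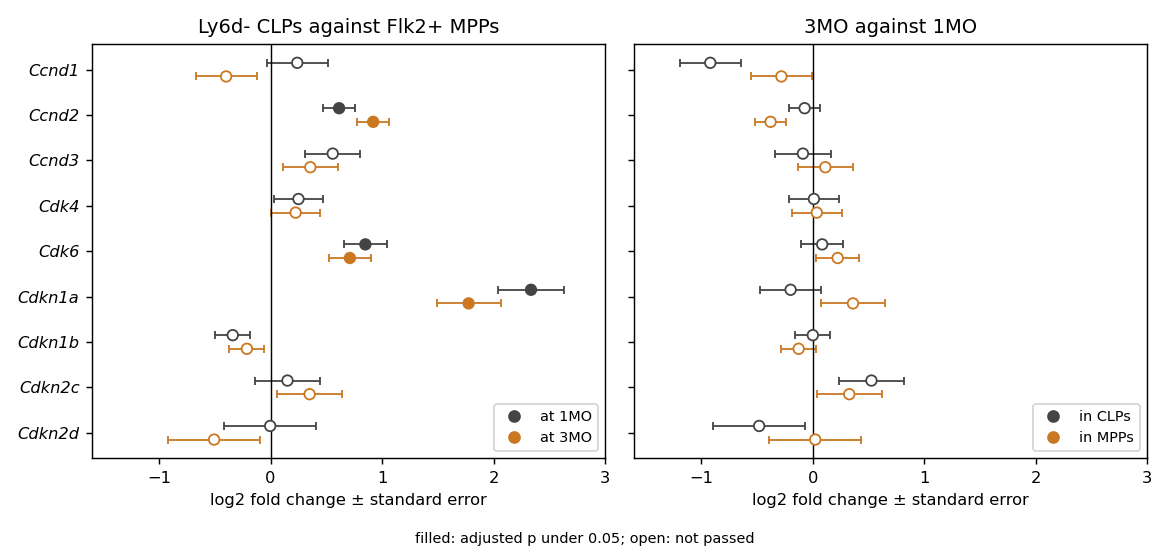
Log2 fold changes (horizontal axes, ± standard error) of the 9 members between Ly6d- CLPs and Flk2+ MPPs at each age (left) and between 3MO and 1MO in each cell type (right); filled points passed an adjusted p of 0.05. Ccnd2, Cdk6 and Cdkn1a are filled at both ages on the left, and no point is filled on the right.

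Within the D cyclins, Ccnd2 made up most of the CPM per kb in every library. Its share was 64.7% ± 4.17 in 1MO CLP, 67.5% ± 4.18 in 3MO CLP, 62.7% ± 5.63 in 1MO MPP and 56.2% ± 3.37 in 3MO MPP. Ccnd3 followed with 26.8% ± 3.00, 27.5% ± 5.21, 26.5% ± 7.67 and 33.3% ± 6.40 in the same order. Ccnd1 held the rest, with 8.52% ± 2.94, 4.97% ± 1.07, 10.8% ± 2.21 and 10.6% ± 3.18. The share of Ccnd1 differed by -3.95 percentage points in Ly6d- CLPs against Flk2+ MPPs (two-sided exact permutation test within each age, p = 0.025) and did not pass adjustment over the 12 share comparisons (adjusted p = 0.26). The share of Ccnd2 was 6.66 points higher in Ly6d- CLPs (exact permutation p = 0.06, adjusted p = 0.26), and that of Ccnd3 differed by -2.72 points (exact permutation p = 0.43, adjusted p = 0.74). The smallest p that this test can give is 0.005, and a single share at that value could not by itself pass adjustment over the 12 comparisons.

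Between the ages, the share of Ccnd1 in Ly6d- CLPs went from 5.90% to 11.7% over the libraries at 1MO to 3.85% to 5.98% at 3MO, a difference of -3.55 points (two-sided exact permutation test, p = 0.2, adjusted p = 0.6). In Flk2+ MPPs the share of Ccnd2 differed by -6.51 points at 3MO (exact permutation p = 0.3, adjusted p = 0.72) and that of Ccnd3 by 6.78 points (exact permutation p = 0.4, adjusted p = 0.74). With 3 libraries against 3 the smallest p is 0.1, so no share could pass for age. The shares depend on the length used. The longest transcripts of Ccnd1, Ccnd2 and Ccnd3 have 3740, 6330 and 3858 bases and the median ones 1773, 805 and 853. Per kb of the median transcript, Ccnd2 held 71.9% to 79.7% of the sum as group means, and the differences between the cell types were -1.42 points for Ccnd1 and 4.40 for Ccnd2.

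**Figure D4:**
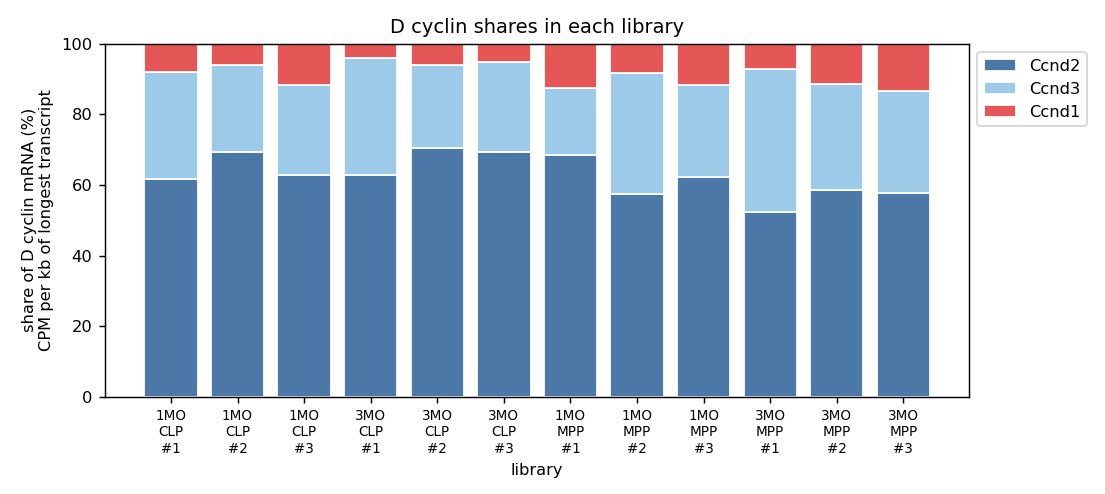
Share of Ccnd2, Ccnd3 and Ccnd1 (stacked, in percent of their summed CPM per kb of longest transcript) in each of the 12 libraries. Ccnd2 holds 52.3% to 70.4% of each library, and Ccnd1 is smallest in the 3MO CLP group at 3.85% to 5.98%.

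For age, 0 of 9 members passed the test in Ly6d- CLPs, 0 in Flk2+ MPPs and 0 when the age effect was compared between the cell types (the interaction), by edgeR and by DESeq2 alike. The tests for age called few genes of any kind, 0.0748% of those tested in Ly6d- CLPs, 0.0224% in Flk2+ MPPs and 0% for the interaction. At an unadjusted p under 0.05, 1 member was counted in each cell type and none for the interaction, where 5.9%, 3.48% and 3.21% of all genes were.

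The member counted in Ly6d- CLPs was Ccnd1, which was 1.89-fold lower at 3MO (log2 fold change -0.92, SE 0.27, unadjusted p = 0.00433, adjusted p = 0.58, edgeR). All 3 libraries at 3MO lay below all 3 at 1MO, as 6.13% of tested genes did. Without 1MO CLP #3, the library with 116 CPM, the fitted log2 fold change had its smallest size over the libraries left out, at -0.55. In Flk2+ MPPs Ccnd1 differed by -0.28 (SE 0.27, adjusted p = 1), and by -0.12 without 3MO MPP #1. The difference between the cell types in this change was -0.64 (SE 0.39, unadjusted p = 0.119, edgeR), and -0.27 without 1MO CLP #3.

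Markers of other cells moved with Ccnd1. The 10 stroma and bone markers summed to 604, 217 and 222 CPM in 1MO CLP #1 to #3 and to 4.74, 7.02 and 10.2 CPM in 3MO CLP, with Col1a1 at 134 to 400 CPM in the former and at 0 in 2 of the 3 latter. Within 1MO CLP the order was not the same, since the library with 604 CPM of these markers had 67.6 CPM of Ccnd1. The highest Ccnd1 library, 1MO CLP #3, held 140 CPM of the 9 erythroid markers, against 26.7 and 18.8 CPM in the other 1MO CLP libraries, although 1MO MPP #3, at 139 CPM, had 72.9 CPM of Ccnd1. Without the 4 libraries numbered 3, the log2 fold change of Ccnd1 in Ly6d- CLPs was -0.56. The 8 B-lineage markers summed to 112, 90.3 and 124 CPM in 1MO CLP #1 to #3, the same order as Ccnd1, and to 67.3, 42.8 and 43.7 CPM in 3MO CLP, where the order differed. The part of these cells in the level of Ccnd1 was not tested.

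**Figure D5:**
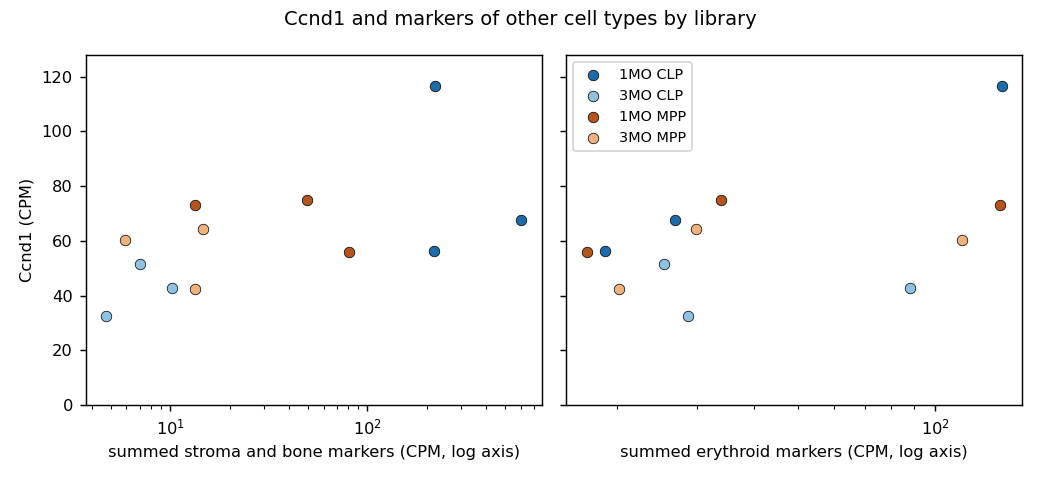
Ccnd1 in CPM (vertical axis) against the summed CPM of 10 stroma and bone markers (left) and 9 erythroid markers (right), on log axes, for 12 libraries. The 3 libraries of 1MO CLP lie to the right of all others for stroma and bone markers, and the library with 116 CPM of Ccnd1 is among the 4 libraries high in erythroid markers.

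In Flk2+ MPPs the member counted was Ccnd2, which was 1.30-fold lower at 3MO (log2 fold change -0.38, SE 0.14, unadjusted p = 0.0179, adjusted p = 1, edgeR). The 3MO libraries, at 446 to 561 CPM, lay below the 1MO libraries, at 651 to 698 CPM, as 4.61% of tested genes did. In the same libraries the granule gene Ngp was at 10.2, 11.7 and 5.48 CPM at 1MO and 22.6, 41.7 and 56.8 CPM at 3MO, while the sum of the 9 neutrophil and granulocyte markers overlapped, at 674 to 820 and 618 to 998 CPM. The stroma and bone markers summed to 49.7, 81.1 and 13.4 CPM at 1MO and 13.3, 14.7 and 5.88 CPM at 3MO. Their part in the level of Ccnd2 was not tested. In Ly6d- CLPs the libraries of the ages overlapped, and the interaction was 0.31 (SE 0.20, unadjusted p = 0.149). Cdkn2c overlapped between the ages in both cell types and did not pass, with log2 fold changes of 0.53 in Ly6d- CLPs (SE 0.29, adjusted p = 0.89, edgeR) and 0.33 in Flk2+ MPPs (SE 0.29, adjusted p = 1). Single libraries moved these values, to 0.30 without 1MO CLP #1, 0.78 without 1MO CLP #2 and 0.19 without 1MO MPP #2. Ccnd3, Cdk4 and Cdkn1b overlapped between the ages in both cell types and differed by less than the SE. Cdk6 and Cdkn1a differed by less than the SE in Ly6d- CLPs, and in Flk2+ MPPs by 0.22 (SE 0.19) and 0.36 (SE 0.28), with overlap and an adjusted p of 1. The value of Cdkn1a was 0.058 without 3MO MPP #3, and that of Cdk6 was 0.043 without 1MO MPP #3 and 0.074 without 3MO MPP #1. Cdkn2d was at 5.95 to 12.2 CPM in 3MO CLP and at 9.45 to 12.6 CPM in 1MO CLP, a log2 fold change of -0.48 (SE 0.42, adjusted p = 0.93). This value was -0.90 without 3MO CLP #2 and -0.31 without 3MO CLP #1.

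Around the members, no gene in any list of the pathway passed the test for age. Downstream, most cell cycle genes had a positive log2 fold change of Ly6d- CLPs against Flk2+ MPPs, with few single calls. Over all tested genes, 5.38% passed between the cell types at 1MO and 6.07% at 3MO. All 16 S-phase genes had a positive log2 fold change at 1MO (median 0.40) and 12 at 3MO (median 0.28), where 47.5% to 48.9% of all genes were positive over the comparisons run. Only Uhrf1, which recruits the maintenance DNA methyltransferase, passed, at 395 ± 46.7 CPM in 1MO CLP and 269 ± 20.5 CPM in 1MO MPP (log2 fold change 0.55, SE 0.15, adjusted p = 0.0435, edgeR). At 3MO Uhrf1 did not pass (0.17, SE 0.15, adjusted p = 0.62, edgeR). All 15 mitosis genes were positive at both ages, with medians of 0.42 and 0.52, and 2 passed at 1MO and 3 at 3MO. The mitotic kinase Plk1 was higher at 1MO (0.83, SE 0.19, adjusted p = 0.0184, edgeR) and did not pass at 3MO (0.40, SE 0.19, adjusted p = 0.28). Top2a, the topoisomerase of dividing cells, was higher at 3MO (0.60, SE 0.13, adjusted p = 0.00897), as was the kinetochore motor Cenpe (0.88, SE 0.18, adjusted p = 0.0084). Neither passed at 1MO, with 0.39 for Top2a (SE 0.13, adjusted p = 0.092, edgeR) and 0.42 for Cenpe (SE 0.18, adjusted p = 0.25). The 5 genes of the cyclin E/A and CDK2 step were all positive at both ages, with medians of 0.39 and 0.39, and none passed.

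Of 13 RB and E2F genes, 1 passed, the activator E2f2, at 61.2 ± 1.5 CPM in 1MO CLP and 37.5 ± 2.90 CPM in 1MO MPP (log2 fold change 0.71, SE 0.20, adjusted p = 0.0482, edgeR). At 3MO E2f2 did not pass (0.47, SE 0.20, adjusted p = 0.20, edgeR). Single calls in these lists stand beside the 5.38% and 6.07% of all tested genes that passed at 1MO and 3MO. Among 13 p53 targets besides Cdkn1a, 1 passed, the stress protein gene Trp53inp1, which was higher in Ly6d- CLPs at 1MO (0.80, SE 0.17, adjusted p = 0.0105). At 3MO Trp53inp1 did not pass (0.38, SE 0.17, adjusted p = 0.25, edgeR). The medians of the p53 targets were 0.06 and 0.00 at 1MO and 3MO. Trp53 itself was at 173 ± 10.8 CPM in 1MO CLP and 176 ± 11.5 CPM in 1MO MPP. The CDK-activating kinase (3 genes), the turnover factors of D cyclins and p27 (8 genes) and 8 transcription cyclins and kinases, listed as unrelated genes, held no call. Of the other inhibitors, Cdkn1c and Cdkn3 were tested and did not pass.

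Upstream regulators went both ways. Of 16, at 1MO 2 were higher and 4 lower in Ly6d- CLPs, and at 3MO 1 was higher and 1 lower. In either direction, 5.38% and 6.07% of all tested genes passed at 1MO and 3MO. Notch1, the receptor of the T-lineage fate, was at 1491 ± 92.6 CPM in 1MO CLP and 600 ± 94.6 CPM in 1MO MPP, a log2 fold change of 1.31 (SE 0.17, adjusted p = 0.000182, edgeR), and of 1.19 at 3MO (SE 0.17, adjusted p = 0.00045). Among the FOXO factors, which are known to activate Cdkn1b, Foxo3 was lower in Ly6d- CLPs at 1MO (-0.73, SE 0.15, adjusted p = 0.00745) and Foxo1 was higher (0.84, SE 0.22, adjusted p = 0.0334, edgeR). At 3MO neither passed, with -0.41 for Foxo3 (SE 0.15, adjusted p = 0.13, edgeR) and 0.14 for Foxo1 (SE 0.22, adjusted p = 0.81). Mycn was at 27.2 ± 4.09 CPM in 1MO CLP and 90.7 ± 18.0 CPM in 1MO MPP (-1.74, SE 0.21, adjusted p = 0.000113), and at 39.9 ± 1.26 and 38.3 ± 4.75 CPM at 3MO. The age difference of Mycn in Flk2+ MPPs did not pass (-1.24, SE 0.21, adjusted p = 0.0777). Myc was at 243 ± 34.2, 249 ± 18.3, 282 ± 30.2 and 237 ± 32.2 CPM in 1MO CLP, 3MO CLP, 1MO MPP and 3MO MPP.

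Among 9310 genes of at least 10 CPM on average, the pattern of log2 CPM most like that of Ccnd2 over the 12 libraries was that of Cnn3 (Pearson r 0.97), Tmem119 (0.97) and Lmnb1 (0.96). For Ccnd3 the nearest were Auts2 (0.92), Snx30 (0.88) and Rps6ka2 (0.87), and for Ccnd1 Ctse (0.88), Mrpl12 (0.87) and Gm2a (0.84). The 12 points fall into the 4 groups and share preparation and depth, and the values of r are given as descriptions.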

How the data were processed

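Ly6d- CLPs and Flk2+ MPPs were FACS-sorted from BM of mice at 1MO and 3MO, 12 libraries in 4 groups of 3. The authors prepared poly(A) RNA with a directional kit and ran FastQC, UMI-tools, Trim Galore, STAR and Salmon (build mm10, per the labels). The deposited table gives estimated counts per gene that the authors scaled for transcript length and not for depth. Reads were not used here. All 12 columns matched a label and 0 did not. Between 8889083 and 20677785 estimated counts per library limit the precision of low genes.

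Counts were rounded and tested with edgeR 4.0.16 (quasi-likelihood, filterByExpr, TMM, one fit of 4 groups, R 4.3.3) over 13367 genes, with Benjamini-Hochberg adjusted p under 0.05 as a call. log2 CPM used a prior count of 2. Shares used scipy 1.17.1. Transcript lengths and coordinates came from GENCODE M21 (GRCm38), which matched 32235 genes. Scripts were tested on simulated data. Alternatives were DESeq2 1.42.0 (size factors, Wald test), other filters, thinning, blocks, other lengths and each library left out. Named genes are all members, up to 3 called genes per pathway list, and 3 genes nearest in pattern to each D cyclin, and marker genes where they moved with a member. Myc, Trp53, Foxo1, Cdkn1c, Cdkn3, Cdkn2a and Cdkn2b were named after their values were seen. The members, lists and tests were chosen with earlier results of these data known.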

Additional observations from a re-analysis of the deposited data

How the results depend on the processing

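With the 4 libraries numbered 3 left out, a choice made after seeing the data because they held most hemoglobin counts, 1 of 9 members passed between the cell types at 1MO in place of 3. Cdkn1a kept its call, Ccnd2 had a log2 fold change of 0.58 (adjusted p = 0.18 by edgeR) and Cdk6 of 0.73 (adjusted p = 0.053). Cdk6 at 3MO then had 0.59 (adjusted p = 0.11), and with only the 6 libraries compared 0.71 (adjusted p = 0.070), and the age difference of Cdkn1a in Flk2+ MPPs was -0.024 in place of 0.36. The cause was not tested, although both alternatives hold fewer libraries. Left out one at a time, the libraries gave 1 to 3 member calls at 1MO, 2 to 3 at 3MO, and 0 for age and the interaction.

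Replicate numbers were not treated as pairs, since the labels give no shared source. The sample order in the labels does run by replicate number. Same-numbered libraries correlated from -0.03 to 0.21 in their deviations, not all above 0.1. Libraries of unlike number were not compared in this way, so these values cannot decide whether equal numbers share a source. All 4 libraries numbered 3 were high in erythroid markers. Fits with a replicate block called 3 members between the cell types at each age and 0 for age, and changed the call of no member. All-gene calls with the block by number were 915 at 1MO, 1007 at 3MO and 11 for age in Ly6d- CLPs. In all 6 same-numbered pairs the share of Ccnd1 was lower and that of Cdk6 higher in Ly6d- CLPs. Swapping labels within numbers gave both the exact permutation p of 0.031, the smallest that 64 arrangements allow, so no share could pass adjustment there (adjusted p = 0.19).

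No share passed adjustment under the other alternatives either. Shares of estimated counts and shares per kb of the median transcript put the age difference of Ccnd1 in Flk2+ MPPs at 0.035 and 0.034 points, and that of Ccnd3 in Ly6d- CLPs was -0.0047 points with the median transcript. With single libraries left out, the age differences ran from -2.23 to 2.68 points for Ccnd3 in Ly6d- CLPs, from -1.62 to 1.48 for Ccnd1 in Flk2+ MPPs, and for the Cdk6 share from -2.63 to 4.75 in Ly6d- CLPs and from -2.08 to 7.64 in Flk2+ MPPs. For Ccnd1 in Ly6d- CLPs the range was -4.86 to -1.96, and the median transcript gave -1.22. In Flk2+ MPPs it was -9.18 to -3.57 for Ccnd2 and 3.06 to 10.7 for Ccnd3. Between the cell types, the Ccnd3 difference ran from -4.58 to -0.75 points. Of 45 member differences, 19 were within 1 SE and had no direction to report. Of those, 14 changed sign in an alternative and 0 passed.

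Counts of all genes moved more. For age in Ly6d- CLPs, 10 calls became 46 with all genes of at least 1 count, 4 with at least 10 counts in every library, 65 by DESeq2's Wald test, 4 with only the 6 libraries, 2 without the libraries numbered 3, and 6 without 1MO CLP #1 or 3MO CLP #2. In Flk2+ MPPs 3 became 26, 1, 35 and 1 under the same settings apart from the 6 libraries, and 5 without 3MO MPP #2, and 0 for the interaction became 6 with all genes, 7 by the Wald test and 1 without the libraries numbered 3 or without 3MO CLP #3. Between the cell types, 719 at 1MO became 1230 by the Wald test, 1092 with the length index as a term (also chosen after seeing the data) and 258 without the libraries numbered 3, with 460 to 623 over single libraries left out. At 3MO 812 became 1427, 1219 and 290, and 435 with only the 6 libraries. Member differences that did not pass moved with single libraries, from 0.03 to 0.37 for Cdk4 and from -0.93 to -0.22 for Cdkn2d between the cell types at 3MO. Cdkn2d had 59 to 272 counts per library.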
